A study of Mus musculus with 15 samples.

Results

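Microglia from wild-type C57BL/6J mice on day 14 after a stroke were compared with microglia from wild-type mice on day 6, across all genes of the deposited table. The comparison is between the recovery stage and the subacute stage that precedes it. It rests on 2 of the 15 samples of the series, the wild-type day 6 and day 14 samples, with 1 library per time point. Of 24421 genes in the table, 7739 reached a level of 20 CPM (read counts scaled by the library's total times its TMM factor, a correction for composition) on day 6 or on day 14 and were considered.

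Male mice, 8 to 24 weeks old, had the middle cerebral artery occluded for 60 minutes and then reperfused. The forebrain was dissociated with collagenase, and cells of intermediate CD45 and CD11b staining were sorted. Total RNA went into Ovation SoLo libraries, which were read on a HiSeq 2500. An antibody to CD31, the product of the endothelial gene Pecam1, was in the staining mix, and the labels do not say how that signal was used in the gate. The same table holds wild-type libraries of sham surgery (the procedure without the occlusion), day 1 and day 28, and these 5 libraries form a time course with 1 library each. Libraries of 3 Yy1flox/flox mice without Cre, taken on day 6 after the same occlusion, are biological replicates per the series' design text. They come from a separately scaled table and served as a measure of the spread between mice. The labels do not say whether a wild-type library came from 1 animal or from pooled animals.

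Microglia are the resident macrophages of the brain. In the healthy brain they express a homeostatic set of genes that includes the purine receptor P2ry12 and Tmem119. After injury they lower this set, divide, take up debris and lipid, and switch on a disease-associated set that includes Apoe, Spp1 and Gpnmb. Endothelial cells, pericytes, blood-borne myeloid cells and border-associated macrophages lie close to the infarct and can enter a sorted fraction.

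The day 6 library held 42540352 counts and the day 14 library 16786830. A count was found for 17007 genes on day 6 and for 11823 on day 14. At the total of day 14, the day 6 proportions would give a count to 16561 genes if every count were an independent draw. Each of the 3 floxed control libraries, with totals of 11035278 to 13936045, held counts for 13835 to 14532 genes. The day 14 library thus recorded fewer genes than these libraries of lower total did. Of the counts from 1 to 20, 75.8% were even on day 6, 89.3% on day 14 and 88.3% on day 28, against 47.4% to 49.5% in the floxed controls. If both reads of a pair were counted, the counting intervals given here are too narrow. In that case the totals also do not rank the day 14 library and the floxed controls by depth.

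A gene was counted as past the size rule when log2((CPM day 14 + 1)/(CPM day 6 + 1)), called the log2 ratio here, was at least 2 or at most -2, a 4-fold difference of the offset values. With 1 library per time point no test was possible and no p-value is given. Intervals beside a ratio of CPM are exact 95% Clopper-Pearson intervals that cover counting error only, not the spread between mice. By this rule 345 genes (4.46% of those considered) were higher on day 14 and 366 (4.73%) were lower. The median log2 ratio of the genes considered was 0.03. Of these 7739 genes, 1320 had a log2 ratio of at least 1 and 1105 of at most -1.

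The genes past the rule were mostly genes of low level. Genes with a mean of both libraries under 50 CPM made up 346 of the 366 lower genes (94.5%) and 271 of the 345 higher genes (78.6%). Of the lower genes, 29 had 0 counts on day 14 and 67 had fewer than 10 counts there, while 3 of the higher genes had fewer than 10 counts on day 6. Among the 2026 genes with a mean of at least 100 CPM, 33 (1.63%) were higher and 2 (0.0987%) were lower. At high levels the genes past the rule were therefore nearly all higher on day 14. Between pairs of the 3 floxed control libraries, the same rule picked 6 to 17 genes of 7170 to 7221 considered (0.0833% to 0.235%), and 0 genes with a mean of at least 100 CPM. Those pairs come from another table with its own counting of reads, so their spread need not hold for the wild-type libraries.

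**Figure D1:**
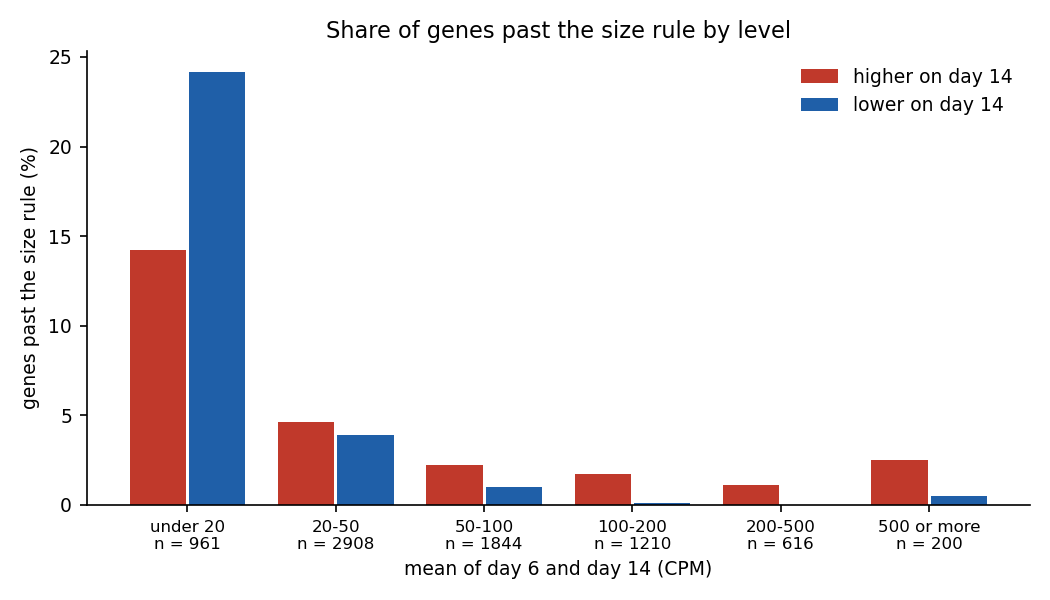
Share of genes past the size rule (vertical axis, percent) by the mean CPM of both libraries (horizontal axis, bins with the number of genes), in red for genes higher and in blue for genes lower on day 14. Lower genes go from 24.1% of the genes under 20 CPM to 0% of the genes between 200 and 500 CPM, while higher genes remain at 1.14% there.

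Among genes past the rule that had 10 counts or more on each day, 342 were higher and 299 lower on day 14. The 342 higher genes had medians of 2.61 (sham), 4.90 (day 1), 6.33 (day 6), 41.6 (day 14) and 0 CPM (day 28). They were highest on day 14 among the 5 wild-type libraries in 321 cases (93.9%), against 30.6% of all 7669 genes considered with such counts. The choice of genes higher on day 14 than on day 6 favours the larger share. On day 28, a library the rule did not use, the higher genes were under 1 CPM in 254 cases (74.3%), against 19.7% of those 7669. These shares are not matched for level, since the 7669 genes had a median of 48.7 CPM on day 6. In sham, 26.6% of the higher genes were under 1 CPM, against 2.16% of the 7669. The 299 lower genes had medians of 34.0, 33.5, 33.5, 4.13 and 36.3 CPM in the same order. They were lowest on day 14 in 214 cases (71.6%), which their choice likewise favours, against 24.4% of the 7669. On day 28, 66 of the lower genes (22.1%) were under 1 CPM, a share near the 19.7% of the 7669.

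Both libraries carried the defining genes of microglia at high levels, and these genes were lower on day 14. Csf1r, the receptor for colony stimulating factor 1 on which microglia depend for survival, stood at 4998 CPM on day 6 and 2657 CPM on day 14, a ratio of 0.532 (0.526 to 0.537). P2ry12, the receptor through which microglia sense nucleotides, stood at 1839 and 1215 CPM, a ratio of 0.661 (0.651 to 0.671). The fractalkine receptor gene Cx3cr1 stood at 2164 and 1322 CPM, and Tmem119, a microglial membrane protein gene, at 398 and 245 CPM. Over these 4 genes the day 6 level was 1.51 (P2ry12) to 1.88 (Csf1r) times that of day 14, which is inside the size rule. In bulk RNA, fewer cells of a type and less RNA per cell cannot be told apart.

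The same direction held for most of the homeostatic list. Of 28 members with at least 5 CPM, 26 had a log2 ratio below 0, the median was -0.69, and 0 of the 27 considered were past the rule. Over all 11278 genes that reached 5 CPM on either day, 51.8% were below 0 and the median was -0.05. On day 14, 27 of the 28 members were below sham, 21 were below day 28 and 20 were above day 1. Below both day 6 and day 28 were 20 of them. One of the 2 exceptions was Crybb1, a crystallin gene enriched in microglia, named here after its values were seen. It stood at 50.3 (sham), 3.35 (day 1), 21.8 (day 6), 83.3 (day 14) and 39.6 CPM (day 28).

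**Figure D2:**
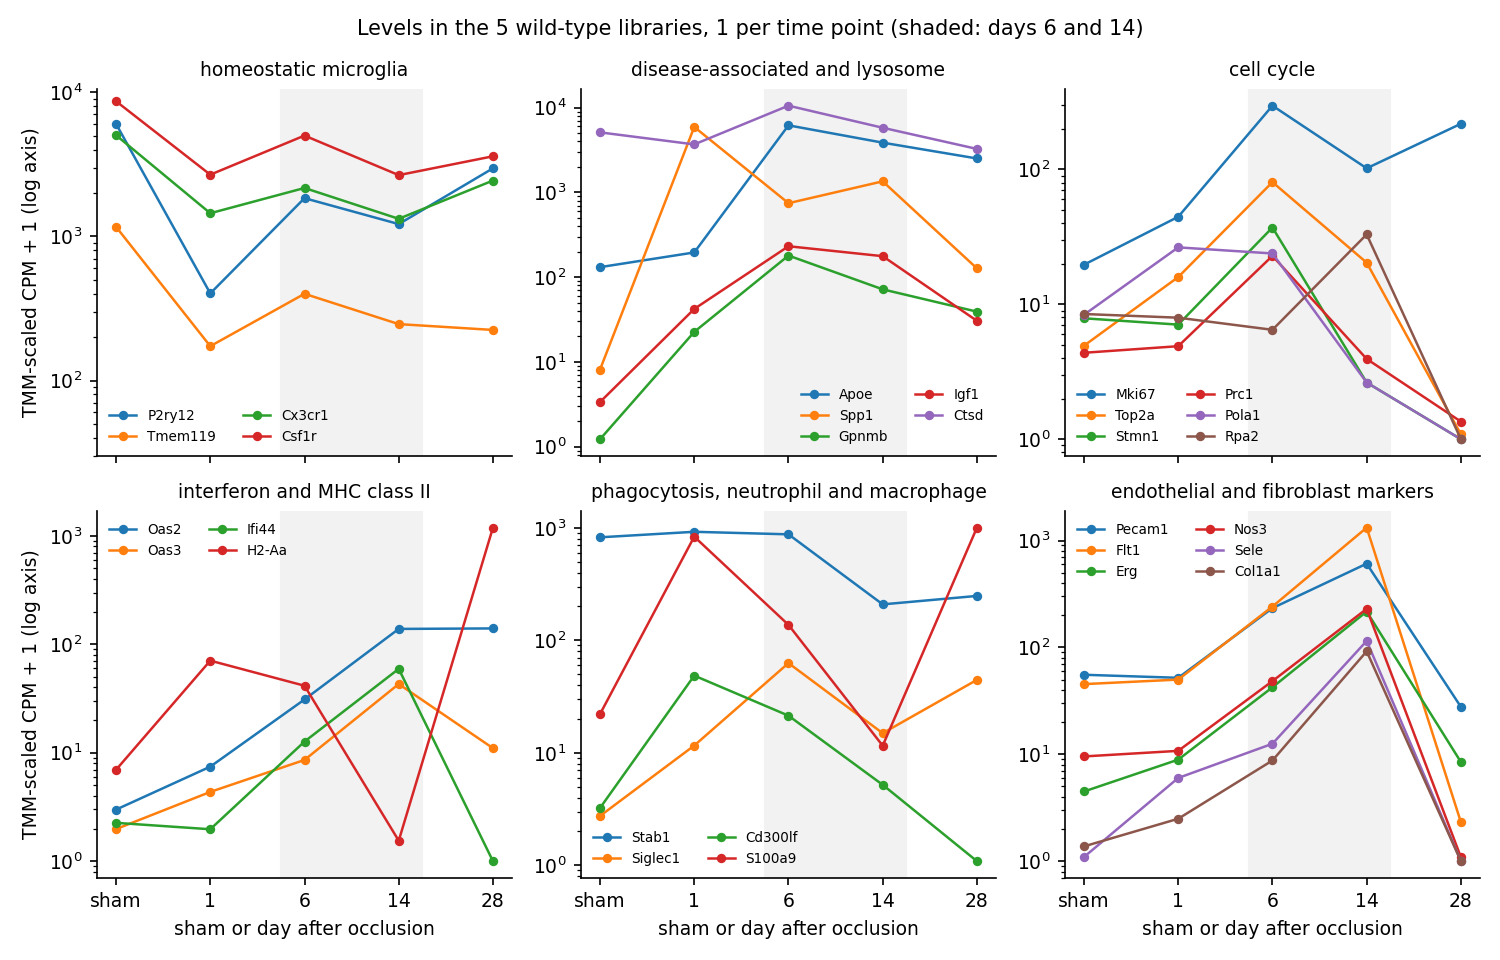
Level (vertical axes, TMM-scaled CPM + 1, log scale) of selected genes in the 5 wild-type libraries (horizontal axes, sham and days 1, 6, 14 and 28, not to scale), with 1 point per library and days 6 and 14 shaded. Homeostatic genes are lower on day 14 than on day 6, Spp1 goes from 745 to 1350 CPM, and the endothelial genes peak on day 14.

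Transcription factor genes were mostly lower as well, in a list that overlaps the homeostatic one (Sall1 is on both). Of 23 members, 16 were below 0, the median was -0.49, and 0 of 22 considered were past the rule in either direction. Mef2a, a factor at microglial enhancers, stood at 748 CPM on day 6 and 533 CPM on day 14. Yy1, a zinc finger factor that links enhancers with promoters, stood at 87.2 and 49.0 CPM, a ratio of 0.561 (0.521 to 0.604). Zfp384, another zinc finger factor, stood at 100.2 and 126 CPM. Some members outside the naming rule, chosen after their values were seen, lay further from 0. Bhlhe41, a repressor of the basic helix-loop-helix family, was at 259 and 71.4 CPM, whereas its relative Bhlhe40 was at 83.8 and 229 CPM. Sall1, a factor of microglial identity, was at 791 and 366 CPM, and the myeloid master factor gene Spi1 at 86.7 and 38.2 CPM.

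The disease-associated list was split. Of its 28 members, 19 were below 0 and 9 above, with a median of -0.26 and 0 of 28 past the rule. Compared with sham, 23 of the 28 were still above it on day 14, against 27 on day 6. Apoe, the lipid carrier gene, went from 6183 to 3862 CPM, a ratio of 0.625 (0.620 to 0.630). Gpnmb, a glycoprotein gene of lipid-laden macrophages, went from 179 to 70.8 CPM, a ratio of 0.396 (0.373 to 0.420). Ctsd, which encodes the lysosomal protease cathepsin D, went from 10547 to 5789 CPM. These genes were lower on day 14 while remaining inside the rule.

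Other members of that list lay nearer to 0 or above it. Igf1, the gene of insulin-like growth factor 1, stood at 231 CPM on day 6 and 176 CPM on day 14, a ratio of 0.762 (0.732 to 0.793), and at 29.5 CPM on day 28. The 3 floxed controls ranged from 122 to 168 CPM for Igf1 on day 6, so both wild-type values lay above that range. Lpl, the lipoprotein lipase gene, stood at 426 and 464 CPM. Spp1, the gene of osteopontin, stood at 745 and 1350 CPM, a ratio of 1.81 (1.78 to 1.84). The floxed controls spanned 1067 to 1789 CPM on day 6, a range that holds the wild-type day 14 value and not the day 6 value. The cystatin gene Cst7 and the integrin gene Itgax, chosen after their values were seen, went from 135 to 317 CPM and from 43.0 to 86.5 CPM.

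Lysosomal genes were lower as a group. Of 31 members with at least 5 CPM, 28 had a log2 ratio below 0, the median was -0.82, and 10 were at or under -1. Of 30 considered, 1 was past the rule, in the lower direction. On day 14, 24 of the 31 members were below sham, although 23 had been above sham on day 6. Among the most abundant members, chosen after their values were seen, the progranulin gene Grn went from 1973 to 866 CPM. Lgmn, an asparaginyl protease gene, went from 2246 to 1143 CPM, and the membrane protein gene Lamp1 from 1060.4 to 553 CPM.

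Phagocytosis receptors and opsonins were lower in 17 of 18 members, with a median of -0.48. Of 18 considered, 2 were past the rule, both lower. Stab1, a scavenger receptor of macrophages (chromosome 14, 31139017 to 31168651, GRCm38.p6), stood at 822 (sham), 920 (day 1), 874 (day 6), 208 (day 14) and 247 CPM (day 28). Its ratio of day 14 to day 6 was 0.238 (0.230 to 0.246), and the 3 floxed controls lay between 961 and 1314 CPM on day 6. Stab1 and Ppp6r1, a phosphatase regulatory subunit gene at 172 and 39.8 CPM, were the 2 lower genes with a mean of at least 100 CPM. Cd300lf, an inhibitory receptor gene, stood at 20.4 and 4.19 CPM. With relative log expression scaling the log2 ratios of both Stab1 and Cd300lf were -1.94, inside the rule.

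The lipid list had members past the rule in both directions, with a median of -0.25 over 22 members. Of 20 considered, 3 were higher and 1 was lower. Fabp3, a fatty acid binding protein gene, stood at 3.89 and 40.04 CPM. Vldlr, a lipoprotein receptor gene, stood at 5.47 and 27.0 CPM. The lower member was Msr1, which encodes a scavenger receptor for modified lipoprotein, at 54.3 CPM on day 6 and 7 counts (0.381 CPM) on day 14. It stood at 755 CPM on day 1 and 47.7 CPM on day 28, and was named after its values were seen. The lipid droplet coat gene Plin2, also named afterwards, was at 244 and 71.9 CPM. Uptake through Msr1 and droplet coating by Plin2 belong to the same list as Vldlr, and their genes stood on the opposite side.

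Genes of cholesterol synthesis had a median of -1.002 over 18 members, but it rested on members of low level. Of the 18, 8 were considered, and 0 of these were past the rule. Of the 18, 7 were under 1 CPM on day 14 and 0 on day 6. Among the more abundant members was Scap, the sterol sensor that escorts the transcription factor SREBP, at 50.1 and 74.0 CPM. With a minimum of 50 CPM the median was 1.02, on the other side of 0.

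Cell cycle genes were lower in the G2 and M phase list. Of 31 members with at least 5 CPM, 24 were below 0, the median was -1.54 and 20 were at or under -1. Of 11 considered, 2 were past the rule, both lower. Many members were of low level, and of the 31, 8 were under 1 CPM on day 14 and 0 on day 6. Under other processing settings the median ranged from -1.76 to -1.09. Mki67, the gene of the proliferation antigen Ki-67, stood at 18.7 (sham), 43.6 (day 1), 296 (day 6), 101.0 (day 14) and 217 CPM (day 28), with a day 14 to day 6 ratio of 0.341 (0.325 to 0.358). Top2a, the topoisomerase of dividing cells, stood at 79.5 and 19.4 CPM, a log2 ratio of -1.98 just inside the rule. Stmn1, a microtubule destabiliser, stood at 36.1 and 1.63 CPM, and Prc1, a bundler of spindle midzone microtubules, at 21.9 and 2.94 CPM. Unlike Mki67, Top2a, Prc1 and Stmn1 stood at 0.0878, 0.351 and 0 CPM on day 28. Of the 31 members, 25 were under 1 CPM there. Of the 7669 genes considered with 10 counts or more on each day, 19.7% were, a share not matched for level. The 3 floxed controls on day 6 lay between 151 and 221 CPM for Mki67 and between 37.98 and 41.9 CPM for Top2a. The wild-type day 6 values were above these ranges and the day 14 values below them. Of the 31 members, 18 stood above every floxed control on day 6. So did 26 of 40 nuclear genes of oxidative phosphorylation, 34 of 51 cytosolic ribosomal protein genes and 5 of 23 transcription factor genes. The floxed controls come from a separately scaled table.

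Replication genes of S phase had a median of -0.18 over 24 members, with 13 below 0 and 11 above. Of 14 considered, 1 was higher and 2 were lower. Pola1, the gene of the catalytic subunit of DNA polymerase alpha, stood at 22.8 CPM on day 6 and 1.63 CPM on day 14. Rpa2, a subunit of the single-strand binding protein, stood at 5.47 and 32.0 CPM. Rrm2, a ribonucleotide reductase subunit named after its values were seen, stood at 20.9 CPM and at 0 counts. Single replication genes therefore stood on both sides, unlike most of the G2 and M phase list.

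Promoters of G2 and M phase genes are known for the CCAAT box, bound by NF-Y, and for the cell cycle genes homology region, TTTGAA, bound by the DREAM complex. In RefSeq promoter windows of 300 bases (250 before to 50 after each start, GRCm38.p6, either strand), CCAAT was present for 21 of 27 matched list members (77.8%) and TTTGAA for 18 of 27 (66.7%). Over all 27025 genes with a window the shares were 41.1% and 20.2%, and over the 366 genes lower on day 14, of which 279 matched, they were 44.4% and 18.6%, beside 42.2% and 13.5% over the 5978 matched genes considered. A match is a description of the letters in the window, not a binding site. Stretches from 200 bases before to 20 bases after the start of 3 named members are printed below 5′ to 3′ on the gene's strand, with both motifs on either strand in capitals.
Top2a (chr11:99024170-99024389, minus strand): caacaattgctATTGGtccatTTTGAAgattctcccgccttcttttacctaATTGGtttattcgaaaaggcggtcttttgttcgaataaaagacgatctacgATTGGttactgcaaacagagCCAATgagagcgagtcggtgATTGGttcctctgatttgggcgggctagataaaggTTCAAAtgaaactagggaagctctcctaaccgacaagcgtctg
Mki67 (chr7:135716360-135716579, minus strand): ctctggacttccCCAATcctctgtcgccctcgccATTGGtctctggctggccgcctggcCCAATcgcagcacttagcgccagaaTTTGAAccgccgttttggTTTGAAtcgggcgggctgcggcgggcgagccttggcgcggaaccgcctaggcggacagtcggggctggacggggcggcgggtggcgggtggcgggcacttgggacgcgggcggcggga
Prc1 (chr7:80294251-80294470, plus strand): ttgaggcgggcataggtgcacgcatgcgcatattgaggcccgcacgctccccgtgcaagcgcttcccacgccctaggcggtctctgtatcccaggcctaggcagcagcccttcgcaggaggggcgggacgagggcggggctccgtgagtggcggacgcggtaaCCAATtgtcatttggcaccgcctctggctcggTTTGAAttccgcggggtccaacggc
The stretch of Top2a holds 5 CCAAT and 2 TTTGAA matches, that of Mki67 3 and 2, and that of Prc1 1 and 1.

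Genes of the interferon response were mostly higher on day 14. Of 33 members with at least 5 CPM, 24 had a log2 ratio above 0, the median was 0.70, and 12 were at or above 1. Of 31 considered, 3 were past the rule, all higher. Oas2 and Oas3 encode oligoadenylate synthetases, which sense double-stranded RNA. Oas2 stood at 1.99 (sham), 6.44 (day 1), 30.0 (day 6), 137 (day 14) and 139 CPM (day 28), with a ratio of 4.59 (4.29 to 4.91). Oas3 stood at 7.57 and 42.0 CPM on days 6 and 14. Ifi44, another interferon-induced gene, stood at 11.7 and 58.3 CPM. All 33 members were above sham on day 6 and 31 were on day 14. This was not particular to the list, since of 51 cytosolic ribosomal protein genes 50 were above sham on day 6 and 47 on day 14. Of the 28 homeostatic members, 0 were above sham on day 6 and 1 on day 14. The family was not uniform, since Oas1a, named after its values were seen, stood at 17.4 CPM on day 6 and at 4 counts (0.218 CPM) on day 14.

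The core of the interferon-stimulated response element, GAAANNGAA, was present in the promoter windows of 16 of 25 matched list members (64.0%), against 9.76% of all genes with a window and 9.03% of the genes considered. It was in the windows of 21 of the 242 matched genes past the rule in the higher direction (8.68%). Stretches from 150 bases before to 20 bases after the start are printed for the 2 named members with a window, with that core on either strand in capitals.
Oas3 (chr5:120777640-120777809, minus strand): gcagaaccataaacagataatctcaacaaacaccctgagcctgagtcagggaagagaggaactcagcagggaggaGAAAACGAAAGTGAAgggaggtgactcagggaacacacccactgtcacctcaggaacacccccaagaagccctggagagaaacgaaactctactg
Ifi44 (chr3:151749891-151750060, minus strand): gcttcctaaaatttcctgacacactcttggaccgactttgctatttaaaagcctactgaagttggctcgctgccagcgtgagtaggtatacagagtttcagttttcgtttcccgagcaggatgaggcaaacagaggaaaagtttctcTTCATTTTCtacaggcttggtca
Oas3 holds 2 overlapping matches and Ifi44 holds 1, on the opposite strand.

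Antigen presentation genes differed by class. In the class II list 9 of 10 members were below 0, with a median of -0.86, and 2 of 6 considered were past the rule, both lower. Of the 10, 4 were under 1 CPM on day 14 and 0 on day 6. The class II median ranged from -0.90 to -0.20 under other processing settings. H2-Aa, the alpha chain of I-A, stood at 5.96 (sham), 69.6 (day 1), 40.5 (day 6), 0.544 (day 14, 10 counts) and 1189 CPM (day 28). H2-DMa, a peptide loading subunit named after its values were seen, stood at 36.4 CPM and at 4 counts. The invariant chain gene Cd74, also named afterwards, was at 78.3 and 49.5 CPM, a smaller difference than that of H2-Aa. The class I list had a median of 0.23 over 13 members, with 9 above 0 and 1 of 13 past the rule. That member, the nonclassical gene H2-M3, stood at 23.7 and 1.31 CPM.

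Genes of secreted signals stood on both sides of 0. Of the 11 cytokine and chemokine genes considered, 0 were past the rule, and the median over 20 members was 0.30, with log2 ratios from -3.69 to 2.90. The chemokine genes Ccl3 and Ccl4 stood at 793 and 1049 CPM and at 375 and 566 CPM, and Il1b, the gene of interleukin-1 beta, at 20.1 and 26.0 CPM. Complement genes had a median of -0.16 and ran from -1.50 to 1.98, with 0 of 12 past the rule. C1qc, a chain of the recognition molecule C1q, stood at 1607 and 1249 CPM.

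Growth factor genes had a median of 0.54 over 14 members, with 2 of 12 considered past the rule, both higher. Igf2, a growth factor gene known in the brain from vessel walls and meninges, stood at 12.5 CPM on day 6 and 83.3 CPM on day 14. Tgfb2, a transforming growth factor gene, stood at 15.1 and 65.3 CPM. Both were at 0.176 CPM on day 28, and Igf2 had stood at 121 CPM on day 1. In the TGF-beta signalling list the median was 0.24 over 16 members, and 2 of 15 considered were past the rule, both higher. These were Id1 and Id3, inhibitors of differentiation that respond to BMP signals in endothelial cells. Id1 stood at 51.4 and 480 CPM, a ratio of 9.33 (8.91 to 9.77), and Id3 at 53.9 and 228 CPM. On day 28 Id1 had 0 counts and Id3 stood at 1.23 CPM. The endothelial markers described below were higher on day 14 and for the most part under 1 CPM on day 28 in the same libraries, and their part in these 4 genes was not tested.

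Immediate early genes, which tissue dissociation can switch on, were higher in 20 of 24 members, with a median of 0.47. Of 23 considered, 1 was past the rule. This was Nr4a1, an orphan nuclear receptor gene, at 67.0 and 331 CPM. The stress and steroid list had a median of 0.31 over 17 members, with 3 of 15 considered past the rule, all higher. The growth arrest genes Gadd45a and Gadd45b stood at 12.5 and 99.5 CPM and at 21.4 and 98.7 CPM. Slc7a11, the cystine transporter gene, stood at 568 (day 1), 6.75 (day 6), 31.0 (day 14) and 48.6 CPM (day 28).

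Housekeeping groups showed how far single genes scattered. Among 51 cytosolic ribosomal protein genes the median was 0.05, with 26 above and 25 below 0, an SD of 0.60 between genes and a range from -1.62 to 1.79. Of the 50 considered, 0 were past the rule, and Rpl4 and Rpl7 stood at 503 and 527 CPM and at 317 and 502 CPM. Nuclear genes of oxidative phosphorylation had a median of -0.19 over 40 members, with 3 of 35 considered past the rule, all lower. Atp5o, an ATP synthase subunit, stood at 34.98 and 1.74 CPM, Ndufb5 of complex I at 30.2 and 2.61 CPM, and Uqcrc2 of complex III at 43.2 and 7.51 CPM. Other members of the list did not follow them, and 17 of the 40 were above 0. In the glycolysis list (median -0.25, 21 members) 1 of 19 was past the rule, Pgam1, a mutase gene at 30.4 and 1.41 CPM. Among iron genes (median -0.10, 12 members) 0 of 10 were, with the ferritin chain genes Fth1 at 1806 and 2217 CPM and Ftl1 at 681 and 513 CPM.

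Endothelial genes were higher on day 14 almost throughout. Of 35 members with at least 5 CPM, 34 had a log2 ratio above 0, the median was 1.46, and 28 were at or above 1. Of 35 considered, 8 (22.9%) were past the rule, all higher, against 4.46% of all genes considered. Flt1, a receptor for vascular endothelial growth factor (chromosome 5, 147561604 to 147726438, GRCm38.p6), stood at 44.3 (sham), 49.0 (day 1), 240.2 (day 6), 1319.96 (day 14) and 1.32 CPM (day 28). Its ratio of day 14 to day 6 was 5.50 (5.37 to 5.62). Sele, the selectin of activated endothelium, stood at 11.5 and 114 CPM. Erg, a transcription factor of endothelial identity, stood at 41.3 and 216 CPM, Egfl7, a secreted vascular factor, at 37.1 and 192 CPM, and Nos3, endothelial nitric oxide synthase, at 47.4 and 228 CPM. Pecam1, the gene of the CD31 antigen in the staining mix, stood at 54.5 (sham), 50.9 (day 1), 232 (day 6), 607 (day 14) and 26.8 CPM (day 28).

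The endothelial genes were not all alike. Vwf, the von Willebrand factor gene of endothelium, stood at 1475 CPM on day 6 and 1411 CPM on day 14, a ratio of 0.956 (0.942 to 0.970). It was chosen after its values were seen, as were the next 2 genes. The transporter genes of brain capillaries Slco1a4 and Abcb1a stood at 177 and 840 CPM and at 200 and 931 CPM, ratios of 4.76 (4.63 to 4.89) and 4.66 (4.55 to 4.79). Within the list, then, ratios ran from 0.956 for Vwf to 9.87 for Sele.

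**Figure D3:**
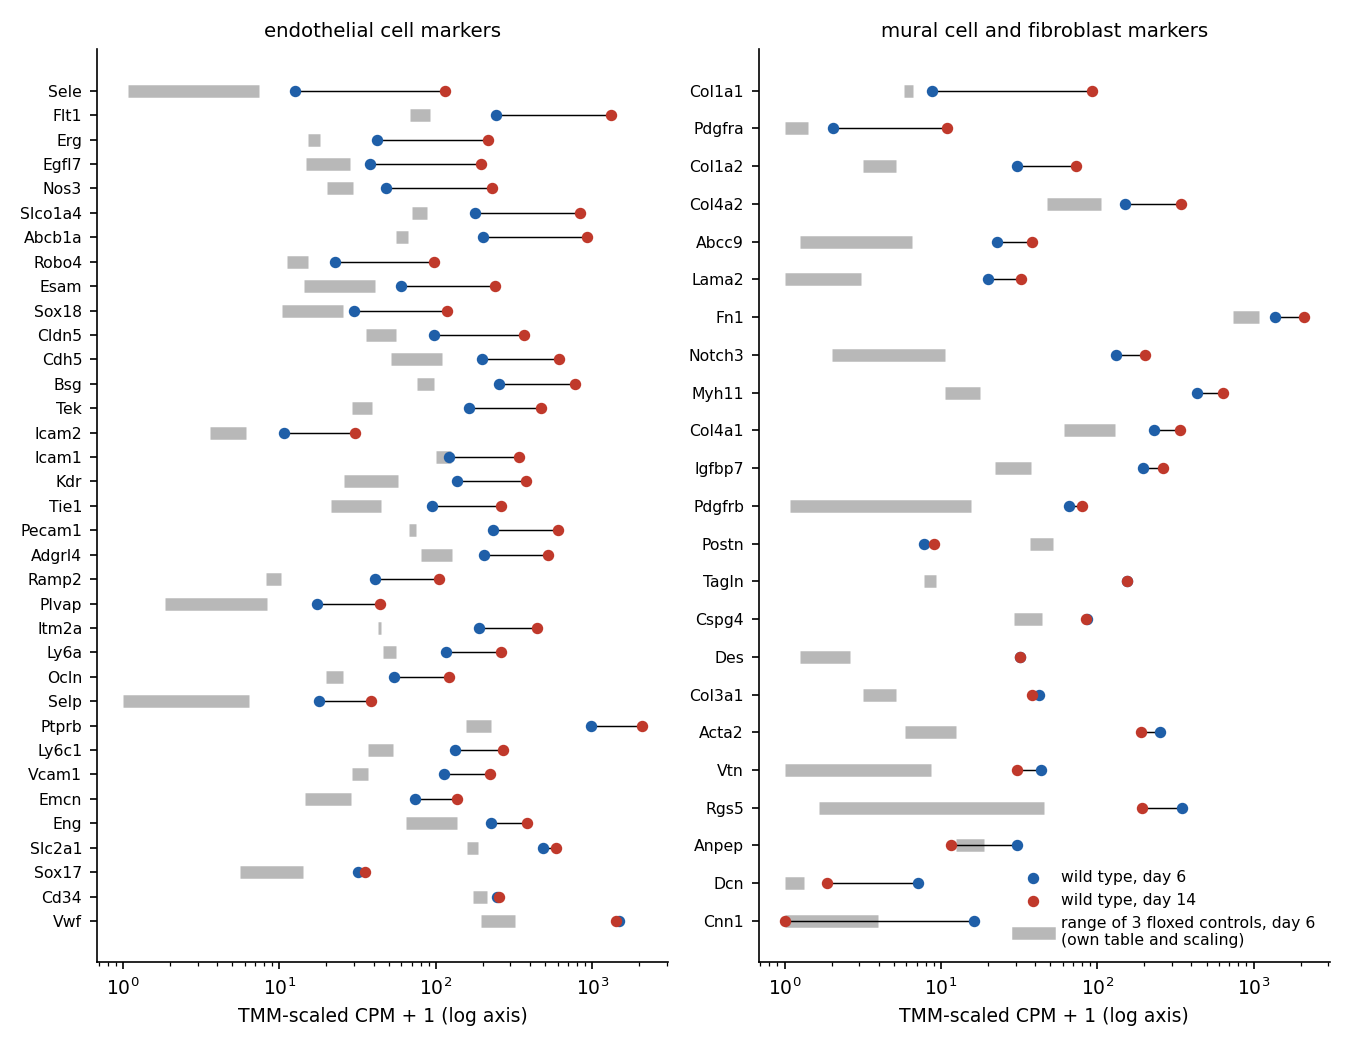
Levels (horizontal axes, TMM-scaled CPM + 1, log scale) of endothelial markers (left) and of mural cell and fibroblast markers (right) with at least 5 CPM, in the wild-type libraries of day 6 (blue) and day 14 (red), with the range of the 3 floxed controls on day 6 in grey from their own table. The red points of the endothelial panel lie to the right of the blue ones except for Vwf, and both lie above the grey ranges for nearly every gene, whereas the mural panel shows differences in both directions.

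The day 6 library was itself high for these genes. Over the 36 listed members the endothelial sum was 1157 (sham), 1281 (day 1), 6547 (day 6), 15018 (day 14) and 470.2 CPM (day 28). In the 3 floxed controls, scaled in their own table, the sum was 1822, 1930.2 and 2414 CPM, and 34 of 35 members stood higher in the wild-type day 6 library than in any of the 3. In the same table as the wild-type libraries, the EGFP-negative and EGFP-positive fractions of Igf1-Egfp mice on day 6 had sums of 1639.6 and 1358 CPM. The wild-type day 6 library thus had the highest endothelial sum of these 6 day 6 libraries, which come from mice of different genotypes and, for the EGFP fractions, another sort. On day 14, in a table of their own, the EGFP-negative and EGFP-positive fractions had sums of 1352 and 2888 CPM. The homeostatic sum in these fractions was 95040 and 87869 CPM, against 19544 CPM in the wild-type day 14 library. Levels in the wild-type day 14 library were therefore not compared with those of the day 14 EGFP fractions. The part of endothelial RNA in the ratios of genes that both cell types express was not tested.

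Markers of vessel wall cells other than endothelium did not show the same ratios of day 14 to day 6. Mural cell and fibroblast markers had a median of 0.27 over 23 members, with 14 above and 9 below 0. Of 19 considered, 1 was past the rule. This was Col1a1, a collagen chain gene of fibroblasts, at 7.75 and 91.0 CPM. Among members chosen after their values were seen, the pericyte gene Rgs5 stood at 345 CPM on day 6 and 192 CPM on day 14, and the smooth muscle gene Tagln at 153 and 154 CPM. These were also high on day 6, since the floxed controls ranged from 0.670 to 44.9 CPM for Rgs5 and from 6.78 to 8.36 CPM for Tagln. As with the endothelial list, most of the 23 members stood above every floxed control on day 6 (22) and were under 1 CPM on day 28 (20). The sum over 27 mural and fibroblast markers was 3664 CPM on day 6 and 4939 CPM on day 14, of which the fibronectin gene Fn1, which macrophages also express, made up 1361 and 2095 CPM.

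Some of the abundant genes that were higher on day 14 are on the endothelial list. Of the 33 genes with a mean of at least 100 CPM past the rule, 6 were on it, 21 were under 1 CPM on day 28, and 32 stood above every floxed control already on day 6. Over the 2019 genes of that level with a usable symbol the shares were 1.29%, 5.05% and 35.2%. Members of the 33 that no list holds included, chosen after their values were seen, Spock2, a proteoglycan gene, at 60.4 and 652 CPM. Podxl, a sialomucin gene of endothelial surfaces, stood at 255 and 1286 CPM. Slco1c1, the thyroid hormone transporter gene of brain capillaries, stood at 43.4 and 261 CPM, and Slc7a5, a large amino acid transporter gene, at 58.9 and 388 CPM. Utrn, the gene of the dystrophin relative utrophin, stood at 325 and 1343 CPM.

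**Figure D4:**
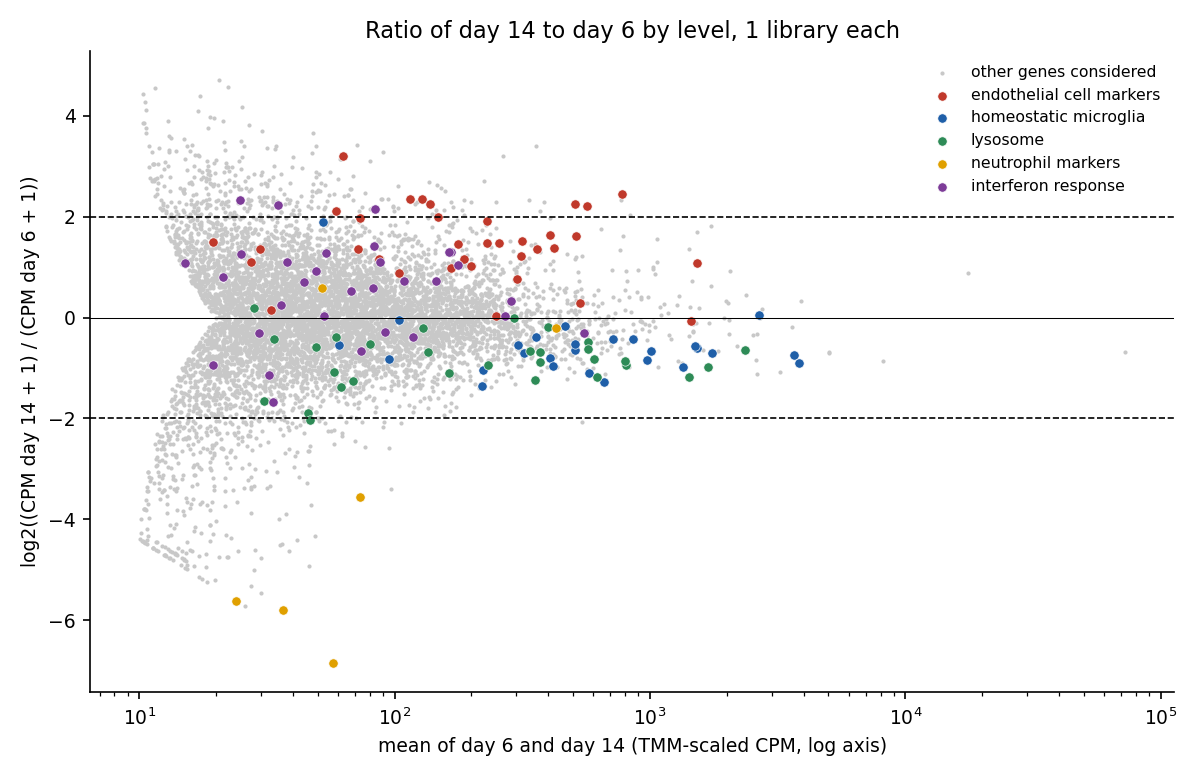
Log2 ratio of day 14 to day 6 (vertical axis) against the mean of both libraries (horizontal axis, TMM-scaled CPM, log scale) for the genes considered, with dashed lines at the size rule of 2 and -2 and 5 gene lists in colour. Endothelial markers lie above 0 except Vwf, homeostatic and lysosome genes lie mostly below 0 and inside the rule, and 4 neutrophil markers lie below it.

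Neutrophil markers were lower on day 14. Of 7 neutrophil markers with at least 5 CPM, 6 were below 0 with a median of -3.57, and 4 of 6 considered were past the rule, all lower. S100a9, a calcium-binding protein gene of neutrophils, stood at 21.1 (sham), 833 (day 1), 136 (day 6), 10.6 (day 14) and 1003 CPM (day 28). Its partner S100a8 and the granule genes Ngp and Ltf, named after their values were seen, stood at 73.0, 115 and 47.9 CPM on day 6 and had 6, 0 and 0 counts on day 14. Csf3r, a list member that microglia also express, stood at 462 and 399 CPM. The summed level of the 14 measured markers was 896 CPM on day 6 and 473 CPM on day 14, with 8 of the 14 at 0 on day 14.

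Border-associated macrophage markers were below 0 in 7 of 8 members, with a median of -2.21, and 3 of 4 considered were past the rule, all lower. Siglec1, the sialoadhesin gene, stood at 61.7 CPM on day 6 and 13.9 CPM on day 14, with 64.5 to 90.7 CPM in the floxed controls. With relative log expression scaling its log2 ratio was -1.95, inside the rule. Stab1, given above, is also on this list. Mrc1, the mannose receptor gene another of these, stood at 23.3 CPM and at 2 counts, and was named after its values were seen. Of 9 monocyte and recruited macrophage markers 6 were above 0, with a median of 0.64. Of 5 considered, 1 was higher, Nr4a1, which is also an immediate early gene, and 1 was lower, the chitinase-like gene Chil3, at 39.7 CPM and 2 counts.

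Markers of other cells were few. In the dendritic cell list 0 of 2 considered were past the rule, and its most abundant members were Siglech, also a microglial gene, at 490.0 and 436 CPM, and the actin bundler gene Fscn1 at 132 and 91.8 CPM. In the lymphocyte list 1 of 16 measured members reached 5 CPM, Cd79b, a B cell receptor chain gene at 5.54 CPM and 0 counts, and Nkg7, a granule gene of cytotoxic cells, had 0 counts and 1.96 CPM. Of 5 oligodendrocyte genes considered 1 was lower, the myelin enzyme gene Cnp, at 22.99 and 1.74 CPM. Of 5 astrocyte genes 1 was higher and 1 lower, the receptor gene Fgfr3 at 4.20 and 24.5 CPM and the glutamate transporter gene Slc1a2 at 26.8 and 0.544 CPM. The neuronal genes Meg3, a noncoding RNA, and Snap25, of the synaptic release machinery, stood at 20.3 and 12.2 CPM and at 11.4 and 19.7 CPM.

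**Figure D5:**
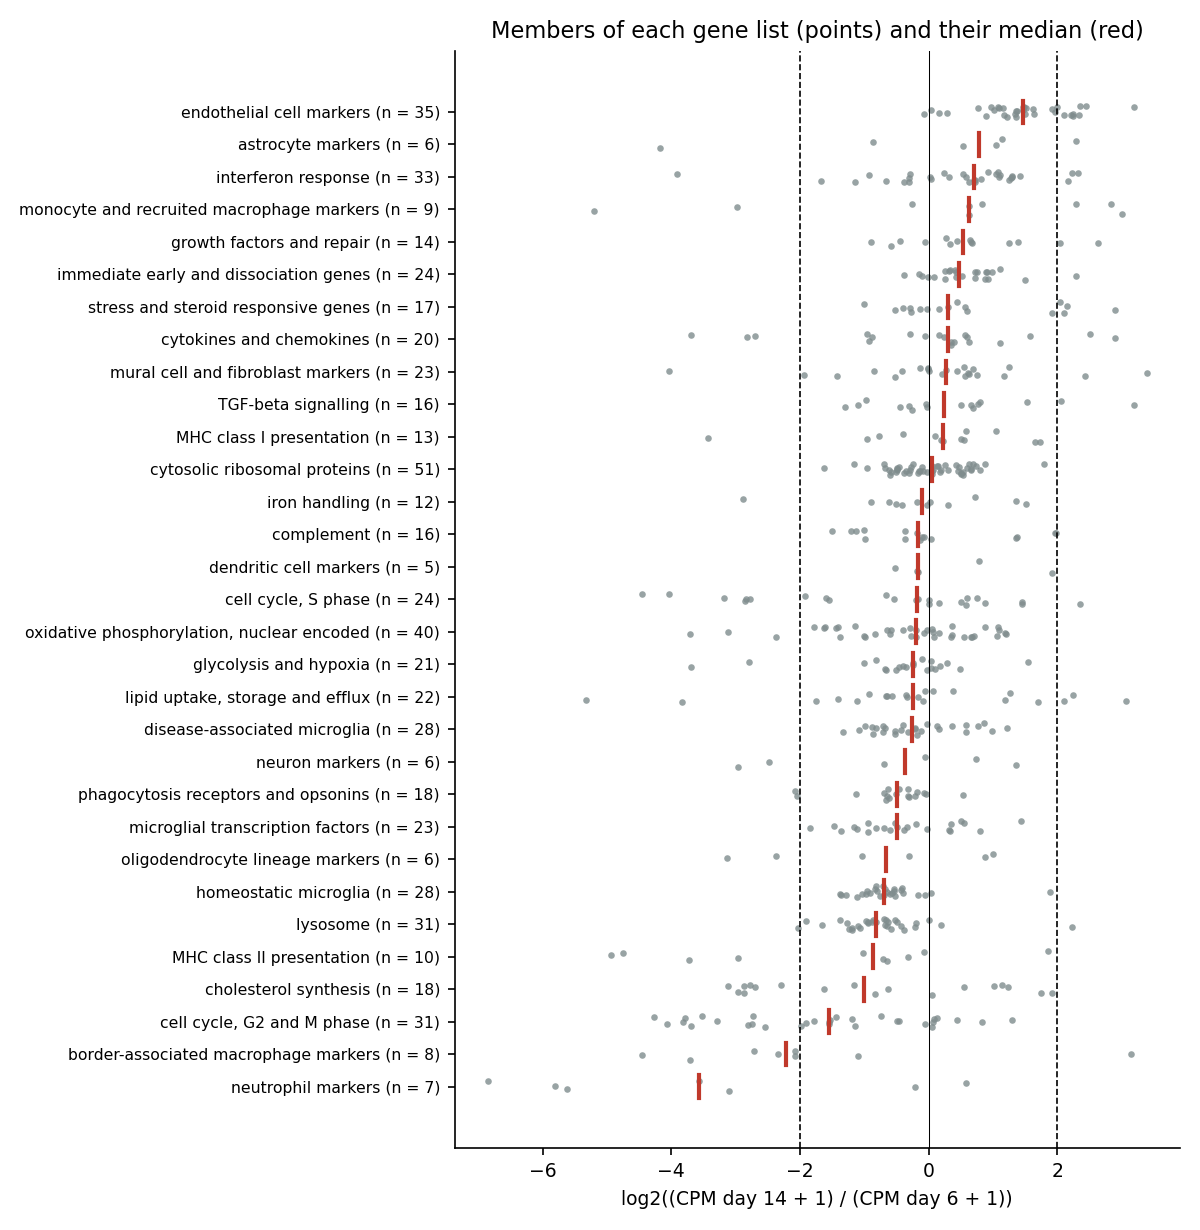
Log2 ratio of day 14 to day 6 (horizontal axis) for each member with at least 5 CPM (grey points) of the lists with at least 5 such members, with the list's median in red and the size rule dashed. Medians run from -3.57 for neutrophil markers to 1.46 for endothelial markers, and the points of most lists lie on both sides of 0.

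The 12 genes with the highest log2 ratios among those past the rule, each with 10 counts or more on both days, were all of low level on day 6. They were Dnah10, Pcsk5, Fn3k, Stra6, Plin5, Rtp3, Hapln3, Sh3tc2, Vwa3a, Igsf5, Acnat1 and Gm6484. Their levels ran from 0.268 to 1.83 CPM on day 6, from 20.2 to 48.6 CPM on day 14 and from 0 to 0.0878 CPM on day 28. Dnah10, an axonemal dynein heavy chain gene, led with 26 counts on day 6 and 743 on day 14, a ratio of 69.6 (47.1 to 107). Pcsk5, a proprotein convertase gene, and Stra6, the membrane receptor gene for retinol uptake, stood at 0.894 and 43.7 CPM and at 1.76 and 48.6 CPM. In each of the 3 floxed controls the 12 genes were at or below 6.91 CPM.

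Under the same minimum of 10 counts on both days, which leaves out 67 lower genes, the 12 genes with the lowest ratios were Maea, Hist1h3a, Pdcd10, Tmed8, H2-Aa, Pomp, Cul5, Trmt1l, Hacd4, Bmf, Sgce and Vps28. They include genes that most cells use, such as Pomp, a proteasome assembly factor, Cul5, a ubiquitin ligase scaffold, and Vps28, a sorting complex subunit. They ran from 37.0 to 90.5 CPM on day 6 and from 0.544 to 2.18 CPM on day 14, that is from 10 to 40 counts. Maea, an erythroblast attachment and ubiquitin ligase gene, stood at 60.6 (sham), 72.8 (day 1), 55.5 (day 6), 0.762 (day 14) and 12.6 CPM (day 28). The 3 floxed controls held it at 48.2 to 56.0 CPM. On day 28 the 12 ranged from 0.351 to 1189 CPM, and 9 of them stood above 10 CPM again.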

How the data were processed

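Bulk RNA of sorted microglia was compared between the wild-type libraries of day 6 and day 14, with 1 library per time point, so no test and no p-value could be had. The authors deposited whole-number read counts per gene for the time course. Per the submitters' processing notes, the tools named are STAR, featureCounts and edgeR and the builds mm10 and GRCm38. No roles, versions or settings are given in the sources used here. The table of the floxed controls was deposited by the authors as counts that need not be whole (expected counts), and these were rounded to whole numbers first. It was scaled on its own. The table holds 24421 rows, of which 27 carry date-like names that a spreadsheet made from gene symbols. They stayed in the totals and counts and are not named.

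Counts were scaled to CPM with TMM factors from all 7 libraries of the table (edgeR 4.0.16, R 4.3.3). Ratios, exact Clopper-Pearson intervals and figures were made with numpy 2.4.6, pandas 2.3.3, scipy 1.17.1 and matplotlib 3.10.9. The log2 ratio used an offset of 1 CPM, and genes that reached 20 CPM on day 6 or day 14 were considered. Medians of lists were taken over members that reached 5 CPM on either day. The script that applies the size rule was first checked on simulated counts. The depth was 42540352 counts on day 6 and 16786830 on day 14.

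The comparison and its 32 gene lists were chosen with earlier results of these data known. Named genes were 14 chosen for the study's subject, the 12 highest and 12 lowest ratios past the rule with at least 10 counts in both libraries, up to 5 such members of each list, and for a list with none the 2 members of highest mean CPM. Others were named after their values were seen, and some that the rule names are not reported here. Gene positions and promoter windows are RefSeq's for GRCm38.p6, and genes without a window were left out of the motif counts. Alternatives covered the scaling, the offset, the level minimum, the count minimum and the removal of other cells' markers.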

Additional observations from a re-analysis of the deposited data

How the results depend on the processing

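By the size rule there were 345 genes higher on day 14 than day 6 and 366 genes lower on day 14 than day 6, and both numbers depended on the treatment of low levels. They were 193 and 223 with an offset of 5 CPM, 664 and 1401 with a minimum of 5 CPM, and 142 and 77 with a minimum of 50 CPM. With a mean of at least 100 CPM, an alternative chosen after seeing the data, they were 33 and 2. Each of these alternatives changes by construction which low genes can pass. The counts remained within 1.5 times under other scalings (423 and 325 with relative log expression, 402 and 378 by total counts, 367 and 403 with TMM on both libraries alone), without the marker lists of other cells (356 and 371), with an offset of 0.25 CPM (378 and 399) and with 10 counts in both libraries (342 and 299). Relative log expression moved the median of the considered genes by 0.15 on the log2 scale. The sign of the median was the same under every alternative run for 26 of the 32 lists. The other 6 reached 1.02 (cholesterol synthesis), 0.30 (S phase), -0.06 (stress), 0.02 (iron), 0.88 (oligodendrocyte) and -0.17 (astrocyte), and the cause was not tested. The neutrophil median ranged from -4.61 to -0.21. Of the 61 genes of the naming rule past the rule, 16 came inside it under an alternative, among them Cd300lf, Fgfr3, Gadd45b, Id3, Ifi44, Oas3, Prc1, Rpa2, Siglec1, Slc7a11, Stab1, Tgfb2, Uqcrc2 and Vldlr. Of these 14, Stab1, Siglec1 and Cd300lf did so with relative log expression, and all but Stab1 with an offset of 5 CPM. No library could be left out with 1 per time point. No paired analysis was possible because each time point has 1 library and the labels give the wild-type libraries no replicate numbers.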

Other observations

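Among the 33 genes with a mean of at least 100 CPM that were past the rule on day 14, some belong to no list and were chosen after their values were seen. Hes1, a transcriptional target of Notch signalling, stood at 17.8 (sham), 12.3 (day 1), 35.7 (day 6), 237 (day 14) and 0.702 CPM (day 28). Cxcl12, the chemokine gene that guides CXCR4-bearing cells, stood at 46.6 CPM on day 6 and 269 CPM on day 14. Hspg2, the gene of the basement membrane proteoglycan perlecan, stood at 139 and 604 CPM. Nedd9, a scaffold gene of cell adhesion, stood at 28.1 and 178 CPM. The first 3 have known roles in vessels, and the endothelial sum was also higher on day 14, but the part of endothelial RNA in these values was not tested.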
